A study of Mus musculus with 16 samples.

Results

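Expression of 9 genes of aldosterone-responsive sodium and potassium transport was followed in mouse colon organoids: Scnn1a, Scnn1b, Scnn1g, Hsd11b2, Nr3c2, Sgk1, Atp1b1, Atp12a and Usp2. They were chosen by name, for their roles in mineralocorticoid-controlled ion transport, out of 54123 genes to which the deposited transcript estimates were summed. RNA sequencing covered organoids of proximal and of distal colon, each with Scramble-sgRNA (the control guide) or Cdx2-sgRNA, in WENR-plus or WENR-minus medium. This gave 8 groups of 2 libraries, 16 libraries in all. Comparisons of the media, of the colon regions and of the guides address how transport genes follow differentiation, position along the colon and Cdx2, a homeobox transcription factor of intestinal identity.

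All organoids came from female mice aged 8 weeks that were heterozygous for a Cre-inducible BrafV600E allele and for a tdTomato reporter, and no Cre step is described for the RNA sequencing. Both guides were delivered with Cas9 by lentivirus, followed by blasticidin selection. The Cdx2-sgRNA organoids were grown out of a single cell with a frameshift in both Cdx2 alleles, so each such line is 1 clone, whereas no cloning is described for the Scramble-sgRNA line. Clonal origin and Cdx2 loss therefore cannot be told apart. In the fourth month of culture the organoids were kept for 2 days in WENR-plus medium and then for 3 days in WENR-plus or WENR-minus. WENR-plus holds Wnt3a, EGF, Noggin and R-spondin 1, and WENR-minus lacks these 4 factors. Wnt3a, R-spondin 1 and Noggin were supplied as conditioned media, which made up most of WENR-plus. Loss of the factors and loss of other contents of the conditioned media therefore cannot be told apart. The methods name no aldosterone in either medium, so no hormone response was measured here.

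Library totals were 12465194 to 18922143 estimated reads. Epithelial markers summed to at least 3946 CPM (read counts scaled to library size by TMM) in every library, whereas 9 markers of stroma, endothelium and blood summed to at most 2.85 CPM. Of 3 distal colon genes, Hoxb13 had at most 18 reads in the 8 proximal libraries and at least 1649 in the 8 distal ones. Hoxa13 was lower in proximal organoids in every region contrast (-8.92 to -4.77), but rose in proximal Scramble-sgRNA organoids in WENR-minus (2.29). Hoxd13 did not mark the distal colon: it had 0 reads in the distal Scramble-sgRNA groups and in distal Cdx2-sgRNA WENR-minus, but not in the proximal Scramble-sgRNA groups. Cdx2 itself kept 515 to 3269 reads per library. In the proximal lines its RNA was lower with Cdx2-sgRNA (log2 fold change -2.09 in WENR-plus and -1.29 in WENR-minus). In the distal lines it did not pass the test (-0.36 and -0.07). RNA does not report on a frameshift, so these values do not check the edit. In bulk RNA, fewer cells of a type and less RNA per cell cannot be told apart.

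Aldosterone enters epithelial cells of the distal nephron and colon and binds the mineralocorticoid receptor, encoded by Nr3c2. Hsd11b2 encodes the dehydrogenase that inactivates glucocorticoids, which would otherwise occupy that receptor. Target genes such as the kinase Sgk1 and the deubiquitinase Usp2 act on the epithelial sodium channel (ENaC), built from alpha, beta and gamma subunits (Scnn1a, Scnn1b and Scnn1g). Sodium that enters through ENaC leaves by the sodium pump, of which Atp1b1 is the beta 1 subunit. Atp12a is the catalytic subunit of the colonic proton-potassium pump, which takes up potassium from the lumen.

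Levels between genes are compared only as TPM (the deposited level per transcript length), which allow for transcript length. The most abundant member was Atp1b1, at 269 to 2181 TPM as group means. Atp12a spanned the widest range of the tested members, from 1.40 TPM in proximal Cdx2-sgRNA WENR-minus organoids to 1245 TPM in their distal counterparts. Nr3c2 lay between 8.47 and 117 TPM and Sgk1 between 2.40 and 24.1 TPM. Hsd11b2 never exceeded a group mean of 17.1 TPM, and Usp2 never exceeded 14.6 TPM.

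**Figure D1:**
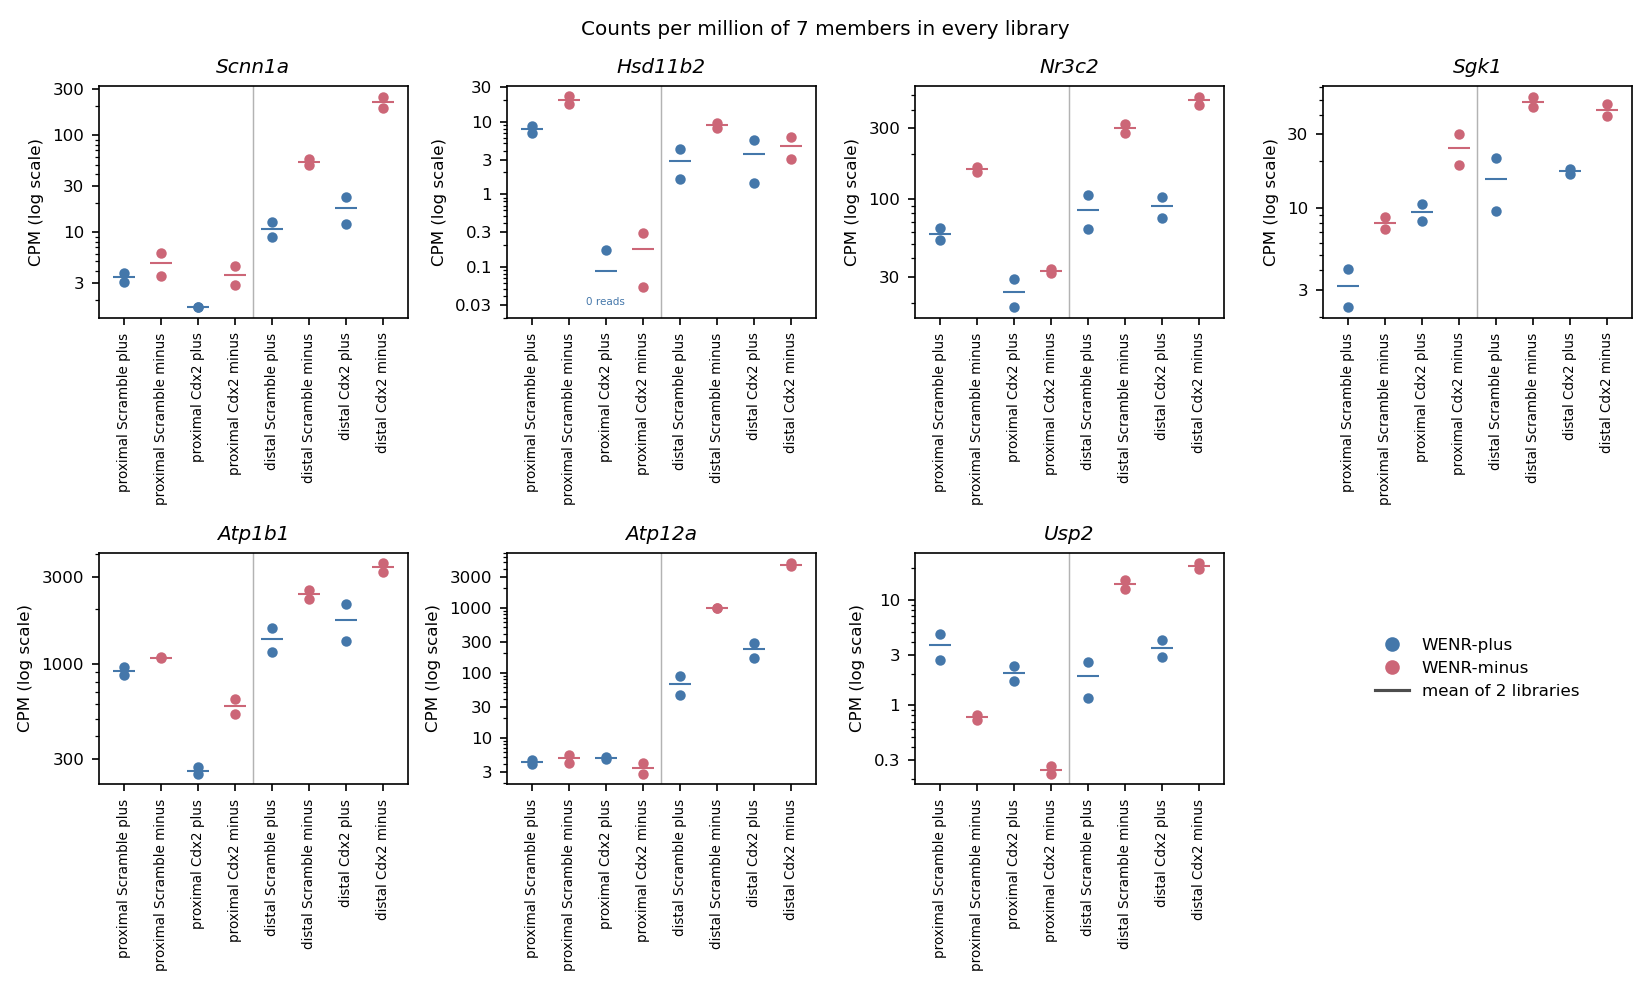
Normalised read counts of the 7 members that passed the filter on low counts, in CPM on a log axis, with 1 point per library, a line at the mean of 2 libraries and colours for the medium. Proximal groups stand left of the grey line. All 4 distal WENR-minus libraries lie at or above 998 CPM for Atp12a, and all 8 proximal libraries at or below 5.52 CPM.

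The receptor gene Nr3c2 (GRCm38 chr8:76899442-77245012, plus strand) was read in every library. In distal Scramble-sgRNA organoids it stood at 106 and 62.9 CPM in WENR-plus and at 319 and 280 CPM in WENR-minus. In distal Cdx2-sgRNA organoids the values were 104 and 74.7 CPM in WENR-plus against 431 and 489 CPM in WENR-minus. The media did not overlap in either distal line. In proximal Scramble-sgRNA organoids Nr3c2 was at 64.0 and 53.1 CPM in WENR-plus and at 164 and 153 CPM in WENR-minus. In proximal Cdx2-sgRNA organoids it was at 28.9 and 18.7 CPM against 33.8 and 32.0 CPM, the 4 lowest values of the 16 libraries. Neighbouring groups in the order of means overlapped only among the distal WENR-plus groups and proximal Scramble-sgRNA WENR-plus (58.6 ± 7.67 to 89.3 ± 20.6 CPM, SD, n = 2). Salmon assigned 90.3% of all Nr3c2 reads to the transcript Nr3c2-203.

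Hsd11b2 (chr8:105518755-105523988, plus strand), the enzyme that shields the receptor from glucocorticoids, had a different order. Its highest group was proximal Scramble-sgRNA WENR-minus, with 22.8 and 17.2 CPM from 368 and 330 reads, followed by distal Scramble-sgRNA WENR-minus with 9.54 and 8.24 CPM. Proximal Scramble-sgRNA organoids in WENR-plus had 8.65 and 6.98 CPM. In proximal Cdx2-sgRNA organoids only 3 and 0 reads were found in WENR-plus and 4 and 1 in WENR-minus. Those 4 libraries were the lowest of all, and a library with 0 reads allows up to 3 reads. Distal Cdx2-sgRNA organoids kept 99 and 27 reads in WENR-plus and 73 and 37 in WENR-minus. The 2 distal Scramble-sgRNA WENR-plus libraries stood apart at 4.21 and 1.61 CPM, as did the distal Cdx2-sgRNA pairs, at 5.67 and 1.43 CPM in WENR-plus and 6.18 and 3.09 CPM in WENR-minus.

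Sgk1 (chr10:21882184-21999903, plus strand) encodes the serum- and glucocorticoid-regulated kinase that holds back ubiquitin-dependent removal of ENaC. Its starts are shown because 2 of them carried nearly all assigned reads and differ in motif content. The RefSeq promoter table (GRCm38.p6) gave 6 starts for Sgk1 and held 6 of the 9 members. Scnn1a, Hsd11b2 and Atp12a had no entry. The first sequence (chr10:21994416-21994665, plus strand) ends just before the start of Sgk1-201, which took 90.4% of Sgk1 reads. The second (chr10:21993640-21993889, plus strand) ends just before the start of Sgk1-202, which took 6.35%. Capitals mark the corticosteroid receptor core AGAACA and the Cdx motif TTTATG, each searched on both strands, so that TGTTCT is the core on the other strand.
Sgk1-201 upstream: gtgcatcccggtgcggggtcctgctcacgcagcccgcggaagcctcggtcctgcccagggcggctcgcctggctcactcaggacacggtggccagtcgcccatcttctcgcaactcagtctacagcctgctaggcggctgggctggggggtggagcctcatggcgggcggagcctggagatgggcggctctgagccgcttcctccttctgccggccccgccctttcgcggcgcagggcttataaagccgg
Sgk1-202 upstream: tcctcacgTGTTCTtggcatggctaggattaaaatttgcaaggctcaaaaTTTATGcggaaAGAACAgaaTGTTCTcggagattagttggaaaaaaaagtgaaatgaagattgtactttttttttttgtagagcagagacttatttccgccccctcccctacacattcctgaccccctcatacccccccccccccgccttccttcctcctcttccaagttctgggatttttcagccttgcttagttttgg
The Sgk1-201 window held no match to these letters. The Sgk1-202 window held 3 cores and 1 TTTATG, and 2 of the cores form the inverted repeat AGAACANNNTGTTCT, whose letters overlap the cores counted. Among 32851 windows of 250 bases in the table, 16.1% held AGAACA, 10.8% held TTTATG and 3 (0.00913%) held the inverted repeat. A match describes letters and is no evidence of binding. In proximal Cdx2-sgRNA WENR-minus libraries 81.0 and 50.5 reads were assigned to Sgk1-202 and 321.2 and 282.9 to Sgk1-201. In proximal Scramble-sgRNA WENR-minus libraries Sgk1-202 had 0 and 3.83 reads and Sgk1-201 had 139.7 and 126.6. Reads of Sgk1-202 were not particular to that group: distal Scramble-sgRNA WENR-plus libraries had 55.3 and 26.0, a share of 13.5% against 17.3% in proximal Cdx2-sgRNA WENR-minus. Proximal Cdx2-sgRNA WENR-plus libraries had 0 and 30.7, and distal Cdx2-sgRNA WENR-minus libraries 0 and 4.41. Transcripts of a gene share exons, so the split between them is an estimate of Salmon, and it was not tested.

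As a gene, Sgk1 was at 4.06 and 2.31 CPM in proximal Scramble-sgRNA WENR-plus libraries and at 8.80 and 7.40 CPM in WENR-minus. With Cdx2-sgRNA the proximal values were 10.7 and 8.30 CPM in WENR-plus and 30.1 and 18.9 CPM in WENR-minus. The proximal guides did not overlap in either medium, with Cdx2-sgRNA above Scramble-sgRNA. Distal Scramble-sgRNA libraries held 21.1 and 9.68 CPM in WENR-plus and 52.3 and 44.5 CPM in WENR-minus. Distal Cdx2-sgRNA libraries held 17.8 and 16.7 CPM and then 46.5 and 39.3 CPM, and overlapped with the distal control in both media.

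Usp2 (chr9:44067021-44095627, plus strand), a deubiquitinase gene that is under clock and mineralocorticoid control in the kidney, was low but followed the medium in opposite directions in the regions. Distal Scramble-sgRNA libraries went from 2.60 and 1.18 CPM in WENR-plus to 12.8 and 15.3 CPM in WENR-minus. Proximal Scramble-sgRNA libraries were at 2.68 and 4.79 CPM in WENR-plus and at 0.806 and 0.730 CPM in WENR-minus, from 13 and 14 reads. No library of one medium overlapped with the other in either region. With Cdx2-sgRNA the distal values were 4.18 and 2.86 CPM against 19.8 and 22.4 CPM. The proximal values were 2.38 and 1.69 CPM against 0.223 and 0.264 CPM, the latter from 3 and 5 reads. Salmon gave 49.8% of Usp2 reads to Usp2-202, 30.8% to Usp2-201 and 18.5% to Usp2-209, a transcript annotated as non-coding.

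The channel subunits were read very unequally. Scnn1a (chr6:125320659-125344943, plus strand) was found in every library, at 12.8 and 8.93 CPM in distal Scramble-sgRNA WENR-plus and 57.2 and 49.5 CPM in WENR-minus. Distal Cdx2-sgRNA organoids had 23.0 and 12.3 CPM in WENR-plus and 194 and 252 CPM in WENR-minus, the highest group. In proximal organoids the 8 libraries lay between 1.68 and 6.07 CPM, below every distal library. Scnn1b (chr7:121865038-121918514, plus strand) had 0 to 7 reads per library and Scnn1g (chr7:121734479-121768475, plus strand) 0 to 23. A library with 0 reads allows up to 0.159 to 0.241 CPM, depending on its total.

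Of the gamma subunit gene Scnn1g, distal Cdx2-sgRNA WENR-minus libraries held 23 and 8 reads and distal Scramble-sgRNA WENR-minus libraries 6 and 3. The other 12 libraries held 1 read in all. Scnn1g thus had 31 reads in WENR-minus against 0 in WENR-plus in distal Cdx2-sgRNA organoids, and 9 against 0 in distal Scramble-sgRNA organoids. The lower 95% counting limits of these ratios were 12.1 and 2.83, which cover counting error only. The beta subunit gene Scnn1b had its most reads, 7, in a proximal Scramble-sgRNA WENR-plus library (0.334 CPM) and its highest CPM in a distal Cdx2-sgRNA WENR-minus library (0.338 CPM, 4 reads). The replicate of each had 0 reads. In distal Cdx2-sgRNA WENR-minus organoids the alpha subunit gene stood at 70.4 ± 9.60 TPM, the gamma gene at 0.478 ± 0.347 TPM and the beta gene at 0.0791 ± 0.112 TPM (SD, n = 2). Alpha transcripts were thus present at a level far above the partners with which ENaC is assembled. Scnn1b and Scnn1g did not pass the filter on low counts, and 7 of the 9 members entered the tests.

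**Figure D2:**
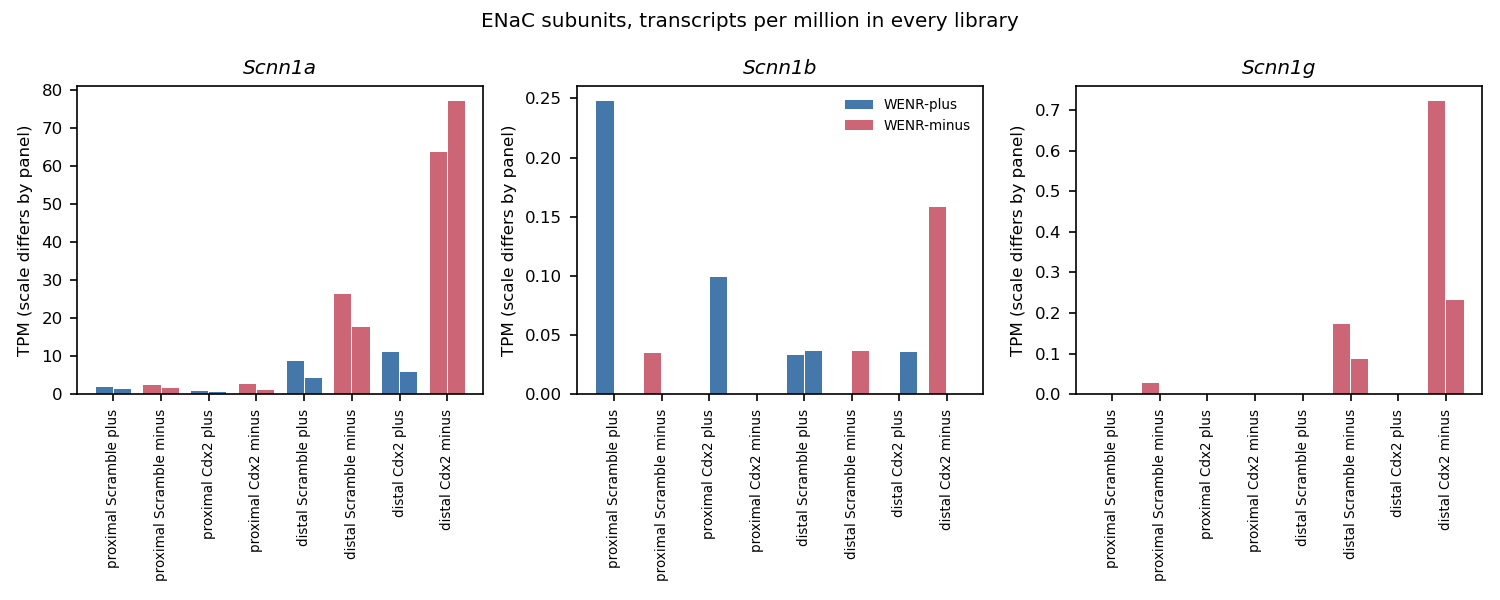
Deposited TPM of the 3 ENaC subunit genes, with 1 bar per library, 2 bars per group and a separate axis for each gene. Scnn1a reaches 70.4 TPM as a group mean, whereas no group mean exceeds 0.478 TPM for Scnn1g or 0.124 TPM for Scnn1b.

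Among the pumps, Atp12a (chr14:56365068-56388550, plus strand) separated the regions most. Distal Scramble-sgRNA libraries held 89.4 and 45.1 CPM in WENR-plus and 1002 and 998 CPM in WENR-minus. Distal Cdx2-sgRNA libraries held 288 and 171 CPM in WENR-plus and 4862 and 4320 CPM in WENR-minus, from up to 57464 reads. No 2 of these 4 distal groups overlapped. In the 8 proximal libraries Atp12a had 53 to 96 reads (2.80 to 5.52 CPM), with overlap between neighbouring groups. Nearly all Atp12a reads were assigned to the coding transcript Atp12a-201.

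Atp1b1 (chr1:164437109-164458355, minus strand) was high throughout. Proximal Scramble-sgRNA libraries held 875 and 961 CPM in WENR-plus and 1087 and 1074 CPM in WENR-minus. Proximal Cdx2-sgRNA libraries were lower, at 270 and 249 CPM and at 640 and 533 CPM. Distal Scramble-sgRNA libraries held 1568 and 1170 CPM in WENR-plus and 2289 and 2553 CPM in WENR-minus. Distal Cdx2-sgRNA libraries held 2142 and 1330 CPM and then 3209 and 3587 CPM. Every distal library was above every proximal one.

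The first comparison set WENR-minus against WENR-plus, and the change of medium is called withdrawal here. Genes were tested with edgeR and called at a Benjamini-Hochberg adjusted p under 0.05 with an absolute log2 fold change over 1. Intervals are 95%. In distal Scramble-sgRNA organoids 5 of the 7 tested members were upregulated in WENR-minus and none fell, where 26.4% of all 15289 genes tested were called and 12.2% were called higher. Atp12a rose 14.9-fold (log2 fold change 3.89, 3.09 to 4.70, adjusted p = 3.47e-05). Usp2 rose 7.38-fold (2.88, 1.95 to 3.82), Scnn1a 4.90-fold (2.29, 1.52 to 3.07), Nr3c2 3.54-fold (1.82, 1.20 to 2.44) and Sgk1 3.14-fold (1.65, 0.82 to 2.48). The largest adjusted p of these 5 was 0.00356. Atp1b1 (0.82, adjusted p = 0.0121) stayed under the fold threshold. Hsd11b2 had 1.61 (adjusted p = 0.0898), and 1.77 with the mouse as a block (adjusted p = 0.0142).

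The same 5 members were upregulated in distal Cdx2-sgRNA organoids, where 33.1% of all genes were called and 14.9% were called higher. Atp12a rose 20.0-fold (4.32, 3.51 to 5.14), Scnn1a 12.6-fold (3.66, 2.85 to 4.47), Usp2 5.99-fold, Nr3c2 5.15-fold and Sgk1 2.48-fold. The call of Sgk1 was lost without distal Cdx2-sgRNA WENR-minus replicate 1 (adjusted p = 0.0535) and without WENR-plus replicate 2 (0.0518). Atp1b1 (0.97, adjusted p = 0.00396) again fell just short of the fold threshold.

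In proximal Scramble-sgRNA organoids 3 of 7 members were called, 2 higher and 1 lower, against 17% of all genes. Nr3c2 rose 2.71-fold (1.44, 0.82 to 2.05, adjusted p = 0.00257) and Sgk1 rose 2.52-fold (1.33, 0.46 to 2.21, adjusted p = 0.0223). Usp2 fell (-2.27, -3.25 to -1.29, adjusted p = 0.00276). The values of Atp12a (0.15, -0.66 to 0.97), Scnn1a (0.48, -0.35 to 1.30) and Atp1b1 (0.24, -0.28 to 0.75) did not pass. Hsd11b2 had 1.35 (adjusted p = 0.160), and 1.35 with adjusted p = 0.0494 with the mouse as a block. Sgk1 lost its call without proximal Scramble-sgRNA WENR-minus replicate 1 (0.0992) or WENR-plus replicate 2 (0.137).

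In proximal Cdx2-sgRNA organoids, where 6.40% of all genes were called, Sgk1 (1.36, 0.53 to 2.19) and Atp1b1 (1.18, 0.66 to 1.70) rose and Usp2 fell (-3.01, -4.16 to -1.86). Nr3c2 did not pass there (0.47, -0.15 to 1.08), nor did Scnn1a (2.14-fold, adjusted p = 0.0889), which had a log2 fold change of 1.08 with adjusted p = 0.0460 with the mouse as a block. Both upregulated calls hung on single libraries. Atp1b1 lost its call without WENR-plus replicate 2 (0.0699). Sgk1 lost it without WENR-plus replicate 1 (0.0595), WENR-minus replicate 1 (0.147) or WENR-plus replicate 2 (0.181). Colonocyte markers, 7 genes such as Car1 and Slc26a3, moved with the medium: they summed to 206 to 260 CPM in proximal and 263 to 431 CPM in distal Scramble-sgRNA WENR-plus libraries, and to 6780 to 10053 and 7071 to 11192 CPM in WENR-minus. In proximal Cdx2-sgRNA organoids they reached only 519 to 1591 CPM in WENR-minus. Krt20 was the only one of the 7 called on withdrawal there (2.70, adjusted p = 0.0113), while Car1 (-0.33) and Slc26a3 (-0.62) did not rise. Other lists moved with the medium too. From WENR-plus to WENR-minus in distal Scramble-sgRNA libraries, goblet cell markers went from 822 to 1448 CPM to 5680 to 10671 CPM. Enteroendocrine markers went from 131 to 159 CPM to 351 to 467 CPM, and stem cell markers from 379 to 445 CPM to 141 to 165 CPM. These sums moved the same way in proximal Scramble-sgRNA libraries. The part of these markers in the members' changes was not tested.

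**Figure D3:**
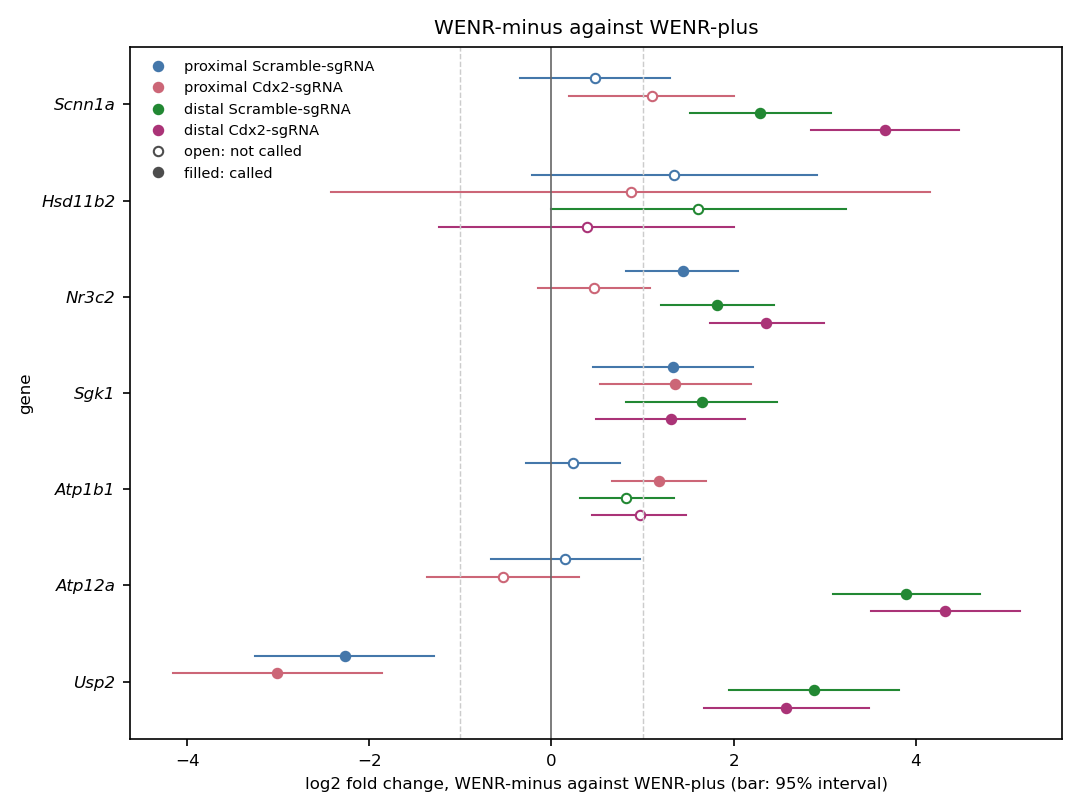
Log2 fold changes of the 7 tested members, WENR-minus against WENR-plus, in the 4 lines, with 95% intervals as bars, filled points for called genes and dashed lines at -1 and 1. Usp2 stands at -2.27 and -3.01 in proximal and at 2.88 and 2.58 in distal organoids, and Atp12a moves in the distal lines.

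The difference between the withdrawal effects of the regions was tested itself in Scramble-sgRNA organoids (proximal minus distal). It was called for 2 of 7 members, Usp2 (-5.15, -6.50 to -3.80, adjusted p = 0.0109) and Atp12a (-3.74, -4.85 to -2.63, adjusted p = 0.0222), in a contrast where 11 of 15289 genes (0.0719%) were called, 0.0392% with a negative value. Both calls depended on single libraries. Usp2 lost its call with an offset for transcript length (-5.73, adjusted p = 0.0732) and in 3 of the 8 fits that leave out a library, those without proximal WENR-minus replicate 1 or 2 or WENR-plus replicate 2 (adjusted p up to 0.0909). Atp12a lost it in 6 of 8, all but those without a distal WENR-plus library (up to 0.128). The fold differences stayed between -5.84 and -4.72 and between -4.32 and -3.38. Scnn1a had -1.82 (adjusted p = 0.246) and was called with DESeq2 (-1.87, adjusted p = 0.0252) and without the filter (-1.81). Between the guides, the withdrawal effect was called different for 0 of 7 members in proximal organoids (3.60% of all genes), with 2 at unadjusted p under 0.05 and 0 with DESeq2. In distal organoids it was 0 of 7 and 0 of all genes with edgeR (0%), with 1 member at unadjusted p under 0.05. DESeq2 called 0 members and 120 genes there.

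The second comparison set proximal against distal organoids of the same guide and medium. In Scramble-sgRNA WENR-minus organoids 5 of 7 members were lower in proximal organoids and none was higher, against 6.08% of all genes called and 3.20% called lower. Proximal Atp12a was at 0.00481 of its distal level (log2 fold change -7.70, -8.67 to -6.73, adjusted p = 4.85e-06), Usp2 at 0.0550, Scnn1a at 0.0897, Sgk1 at 0.167 and Atp1b1 at 0.446. The call of Atp1b1 was lost without proximal or distal WENR-minus replicate 2 (0.0739 and 0.0647). Nr3c2 was lower by less than the fold threshold (-0.92, adjusted p = 0.0489). Hsd11b2 pointed the other way, at 1.17 (-0.40 to 2.73), and did not pass.

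In WENR-plus 3 of 7 members were lower in proximal Scramble-sgRNA organoids (1.75% of all genes were called, 1.07% lower): Atp12a (-3.96, -4.80 to -3.12, adjusted p = 0.000213), Sgk1 (-2.26, -3.14 to -1.38, 0.0118) and Scnn1a (-1.66, -2.47 to -0.85, 0.0348). Scnn1a lost its call with the length offset (0.0577) and without any 1 of the 4 libraries (adjusted p 0.0713 to 0.242). Sgk1 lost it without distal replicate 1 (0.0756) or proximal replicate 2 (0.122). Usp2 had 0.97 (adjusted p = 0.285), the only positive value besides Hsd11b2 (1.42, adjusted p = 0.397).

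With Cdx2-sgRNA in WENR-minus, 6 of 7 members were lower in proximal organoids (34.6% of all genes were called, 16.5% lower), all but Sgk1 (-0.81, adjusted p = 0.0759). Proximal Atp12a was at 0.000744 of its distal level (-10.39, -11.48 to -9.31), Usp2 at 0.0120, Scnn1a at 0.0163, Nr3c2 at 0.0716 and Atp1b1 at 0.173. Hsd11b2 had 5 reads over the 2 proximal libraries and 110 over the 2 distal ones, 30.0-fold lower with a 95% counting interval of 12.5 to 94.1 (adjusted p = 0.00187). In WENR-plus 5 of 7 were lower (17% of all genes were called, 9.57% lower), with Usp2 (-0.79, adjusted p = 0.150) and Sgk1 (-0.86, adjusted p = 0.0928) not called. Markers of cell types moved with the region in Cdx2-sgRNA WENR-minus organoids. The 6 goblet cell markers summed to 52.7 to 67.4 CPM in proximal and 5664 to 14786 CPM in distal libraries, the 5 enteroendocrine markers to 0.847 to 1.86 against 382 to 392 CPM, and the 7 colonocyte markers to 519 to 1591 against 14903 to 15994 CPM. Of the colonocyte markers, Krt20 (-0.81) and Fabp2 (-1.49) were not called in this contrast. The part of these cell type markers in the members' values was not tested.

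The third comparison concerned Cdx2 loss, Cdx2-sgRNA against Scramble-sgRNA within a region and medium. In proximal WENR-minus organoids 4 of 7 members were called, 1 higher and 3 lower, against 21.2% of all genes. Hsd11b2 was 128-fold lower by its reads (5 against 698, counting interval 54.6 to 395, adjusted p = 0.000368). Nr3c2 fell to 0.208 of the control (-2.27, -2.90 to -1.64, adjusted p = 0.000129). Usp2 fell to 0.327 (-1.61, adjusted p = 0.0391), a call lost with DESeq2, with the length offset and without any 1 of the 4 libraries (0.0849 to 0.133). Sgk1, in contrast, rose 3.02-fold (1.59, 0.75 to 2.43, adjusted p = 0.00699). Atp1b1 was lower by less than the fold threshold (-0.88, adjusted p = 0.0118). Scnn1a (-0.40, -1.24 to 0.43) and Atp12a (-0.49, -1.33 to 0.34) were not called, both from few proximal reads.

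In proximal WENR-plus organoids 4 of 7 members were called, 1 higher and 3 lower, against 15.9% of all genes. Hsd11b2 was 95.3-fold lower (3 reads against 299, counting interval 32.3 to 465, adjusted p = 0.00128). Atp1b1 fell to 0.282 (-1.82, -2.35 to -1.30) and Nr3c2 to 0.406 (-1.30, -1.92 to -0.68). Sgk1 rose 2.96-fold (1.57, 0.69 to 2.44, adjusted p = 0.0124). Nr3c2 lost its call without proximal Cdx2-sgRNA WENR-plus replicate 2 (0.0510). Sgk1 lost it without Cdx2-sgRNA replicate 1 (0.0602) or Scramble-sgRNA replicate 2 (0.0907). Usp2 (-0.87, adjusted p = 0.128) and Atp12a (0.19, adjusted p = 0.730) were not called. Scnn1a had -1.02 (adjusted p = 0.0772), and -1.00 with adjusted p = 0.0403 with the mouse as a block. Markers of other lineages moved with this comparison. Goblet cell markers, 6 genes, summed in WENR-plus to 34.3 to 44.9 CPM with Cdx2-sgRNA against 696 to 1080 CPM with Scramble-sgRNA. In WENR-minus they summed to 52.7 to 67.4 against 6144 to 7195 CPM. The 5 enteroendocrine markers summed to at most 1.22 against at least 50.3 CPM in WENR-plus, and to at most 1.86 against at least 116 CPM in WENR-minus. In WENR-plus the goblet cell markers Clca1 (-0.47) and Zg16 (-1.66) and the enteroendocrine markers Pyy (-0.44) and Gcg (-1.44) were not called. The part of this shift in the members' values was not tested.

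In distal WENR-minus organoids Cdx2 loss raised 2 of 7 members and lowered none, where 5.25% of all genes were called and 2.24% were called higher. Atp12a rose 4.59-fold (2.20, 1.45 to 2.94, adjusted p = 0.00413) and Scnn1a rose 4.17-fold (2.06, 1.31 to 2.82, adjusted p = 0.00544). Both calls were lost without distal Scramble-sgRNA WENR-minus replicate 2 (adjusted p = 0.0535 and 0.0692), at little changed values of 2.19 and 1.96. Scnn1g reads were 3.90-fold higher (31 against 9, counting interval 1.81 to 9.32, which covers counting error only). Across libraries, edgeR without the filter on low counts gave Scnn1g 1.94 (SE 1.31, adjusted p = 0.571), which did not pass. The remaining 5 ranged from -0.94 for Hsd11b2 to 0.62 for Nr3c2. Colonocyte markers summed to 14903 to 15994 CPM there against 7071 to 11192 CPM, but the 7 genes did not move one way. Car4 was called higher (2.17, adjusted p = 0.0119) and Fabp2 lower (-3.22, adjusted p = 0.0271), and the other 5 were not called, among them Guca2a (-2.30, adjusted p = 0.0562) and Slc26a3 (-0.35). Their part was not tested.

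In distal WENR-plus organoids edgeR called 0 of 7 members and 0.262% of all genes, with 2 members at unadjusted p under 0.05. Atp12a had 1.77 (1.03 to 2.51, adjusted p = 0.0529). It was called with DESeq2, without a filter and with the mouse as a block (1.78, adjusted p = 0.00683). Leaving out a library gave adjusted p between 0.0354 and 0.243, and the gene was called without distal Scramble-sgRNA replicate 1 or Cdx2-sgRNA replicate 2. The other members ranged from 0.08 to 0.89.

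**Figure D4:**
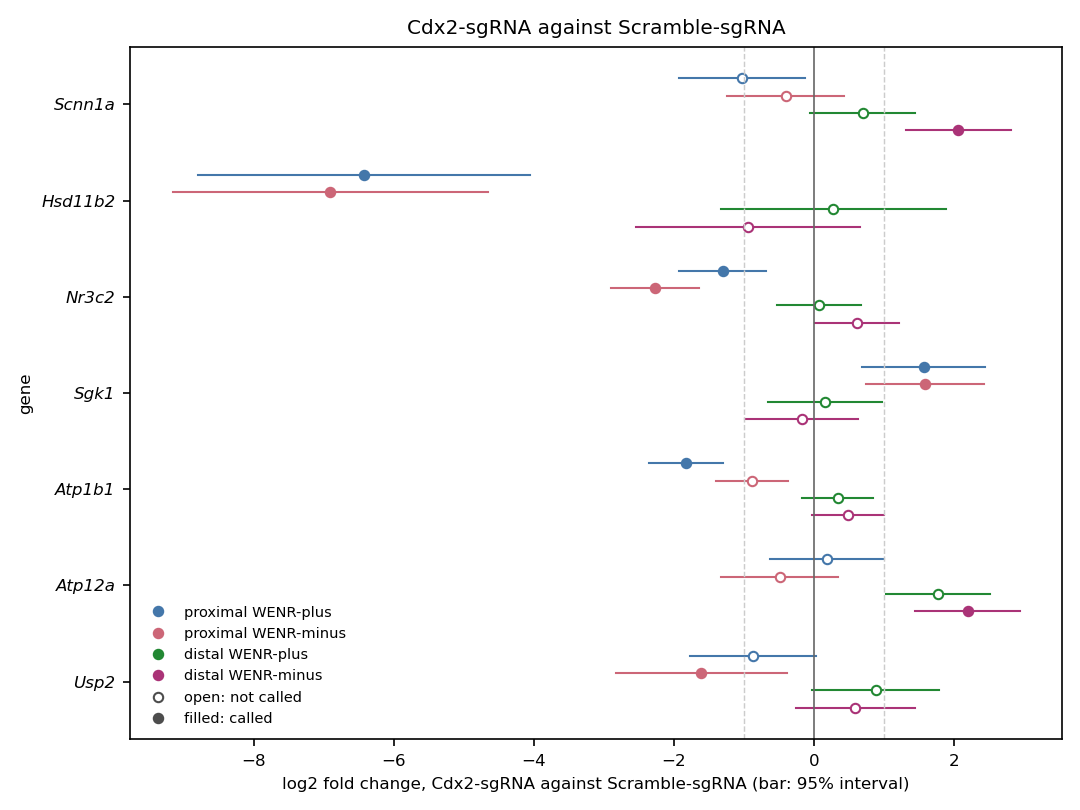
Log2 fold changes of the 7 tested members, Cdx2-sgRNA against Scramble-sgRNA, by region and medium, with 95% intervals as bars, filled points for called genes and dashed lines at -1 and 1. Fitted values of Hsd11b2 in proximal organoids rest on 3 and 5 reads. Sgk1 is the member that rises in proximal organoids, at 1.57 and 1.59.

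Whether Cdx2 loss acted differently in the regions was tested as the proximal minus the distal effect. In WENR-minus the difference was called for 7 of 7 tested members, 6 negative and 1 positive, against 14.3% of all genes. The values were -2.89 for Nr3c2 (-3.76 to -2.02, adjusted p = 0.000544), -2.69 for Atp12a (-3.80 to -1.58, 0.00386), -2.46 for Scnn1a (-3.58 to -1.35, 0.00608) and -1.37 for Atp1b1 (-2.10 to -0.64, 0.0133). Hsd11b2 had a fitted -5.97 (adjusted p = 0.00659). Sgk1 had 1.77 (0.61 to 2.93, adjusted p = 0.0340) and Usp2 had -2.20 (-3.69 to -0.71, adjusted p = 0.0386). For Nr3c2 and Hsd11b2 the proximal lines moved, whereas for Atp12a and Scnn1a the distal lines did. With the length offset Scnn1a (-2.00, adjusted p = 0.0555) and Usp2 (-2.08, adjusted p = 0.201) were not called. Usp2 lost its call without any 1 of the 8 libraries (adjusted p 0.0654 to 0.105) and Sgk1 in 7 of 8, all but without proximal Cdx2-sgRNA replicate 2 (up to 0.101). Atp1b1 lost it without proximal Cdx2-sgRNA replicate 2 (0.0547).

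In WENR-plus the difference was called for 2 members, both negative (4.98% of all genes were called, 3.76% negative), Atp1b1 (-2.17, -2.90 to -1.44, adjusted p = 0.00256) and Hsd11b2 (fitted -6.71, adjusted p = 0.0109). With the mouse as a block 6 were called: Scnn1a (-1.68, adjusted p = 0.0349), Nr3c2 (-1.41, 0.0163), Sgk1 (1.36, 0.0389) and Atp12a (-1.58, 0.0201) joined them. Without distal Cdx2-sgRNA WENR-plus replicate 2 or distal Scramble-sgRNA WENR-plus replicate 1, the count was 5.

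Other genes of the pathway were taken from 5 lists. ENaC is activated by serine proteases, held in check by Spint1 and Spint2, and marked for removal by the ubiquitin ligase Nedd4l. Of 17 such genes, all tested, 4 rose and 0 fell on withdrawal in distal Scramble-sgRNA organoids, where 26.4% of all genes were called (list median 0.46, all genes -0.11), among them Tsc22d3 at 1.00, which had 0.99 with the mouse as a block (adjusted p = 0.0310). In the proximal ones 3 rose and 1 fell, against 17% of all genes (median 0.22, all genes -0.06). Counted in either direction, these shares are near the background. In distal Scramble-sgRNA organoids 12.2% of all genes were called higher, a smaller share than the 4 of 17 in this list. The list was not tested as a set. The protease gene St14 and its inhibitor genes Spint1 and Spint2 were called in both regions: Spint1 at 1.91 in distal and 1.61 in proximal, Spint2 at 1.41 and 1.11, and St14 at 1.34 and 1.15. Cdx2 loss in proximal WENR-minus organoids raised 2 and lowered 3 of the list, against 21.2% of all genes, among them Spint1 (-1.20) and Tmprss4 (-1.46), another protease gene.

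Corticosteroid receptors, enzymes and targets other than the members gave 10 genes, of which 8 were tested. In proximal WENR-minus organoids Cdx2 loss raised 3 and lowered 2 of them, where 21.2% of all genes were called. The targets Ndrg2 (-4.00) and Fkbp5 (-2.61) fell. H6pd, which supplies reducing power to the opposing enzyme Hsd11b1, rose (2.61), although its 2 Cdx2-sgRNA libraries stood far apart at 1117 and 452 reads. Tsc22d3, a glucocorticoid target, rose (1.35), a call lost without proximal Scramble-sgRNA WENR-minus replicate 1 (adjusted p = 0.0612). Per1, a clock gene that glucocorticoids also induce, was the third that rose (1.06, 0.37 to 1.75), and is named to complete the count after its values were seen. With Cdx2 loss in distal WENR-minus organoids, where 5.25% of all genes were called, Fkbp5 (-2.55) and Fkbp4 (-1.02, adjusted p = 0.0167) fell. The other tested genes of the list were not called there. On withdrawal in proximal Scramble-sgRNA organoids, where 17% of all genes were called, only Nr3c1, the glucocorticoid receptor gene, was called (1.01, adjusted p = 0.00281). It fell under the fold threshold without WENR-minus replicate 1 (0.83) or WENR-plus replicate 2 (0.95). In distal Scramble-sgRNA organoids, where 26.4% of all genes were called, Fkbp5 (1.23) and Tsc22d3 (1.00) rose and Fkbp4 fell (-1.20).

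Of 12 other pump subunit genes 7 were tested. Cdx2 loss in proximal WENR-minus organoids raised Fxyd3, a regulator of the pump, by 3.58.

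Of 9 potassium channel genes 8 were tested. On withdrawal 1 rose and 1 fell in distal Scramble-sgRNA organoids and 1 rose in proximal ones, against 26.4% and 17% of all genes called. Kcnk5 rose in all 4 lines, by 2.63 in distal and 1.69 in proximal Scramble-sgRNA organoids. Kcnn4 fell in the distal Scramble-sgRNA line (-1.01, adjusted p = 0.0425), a call lost without any 1 of the 4 libraries (0.0668 to 0.235). Cdx2 loss in proximal organoids raised 1 and lowered 1 in WENR-minus (21.2% of all genes called) and lowered 1 in WENR-plus (15.9%). Kcnn4 rose in WENR-minus (1.12, adjusted p = 0.0346) and lost its call without 3 of the 4 libraries, all but Scramble-sgRNA replicate 2 (up to 0.196). Kcnma1, the BK channel through which the colon secretes potassium, fell with Cdx2 loss in proximal organoids in both media, from 239 and 479 reads to 6 and 0 in WENR-minus. In WENR-plus it fell from 470 and 602 reads to 3 and 1.

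Electroneutral and substrate-coupled sodium uptake, the route that does not need ENaC, gave 10 genes, all tested. On withdrawal 5 rose and 1 fell in each Scramble-sgRNA region, where 26.4% of all genes were called in distal and 17% in proximal organoids (list medians 1.78 and 1.38, all genes -0.11 and -0.06). Slc9a3, the main apical sodium-proton exchanger, rose by 7.85 and 5.11 and Slc9a2, a second exchanger, by 3.64 and 3.18. In proximal Cdx2-sgRNA organoids, where 6.40% of all genes were called, Slc9a2 alone was called (1.65, adjusted p = 0.0334). This call was lost without any 1 of the 4 libraries. Cdx2 loss lowered 7 of the 10 in proximal WENR-minus organoids and raised none, against 21.2% of all genes called, led by Slc5a8 (-8.75), Slc5a1 (-7.56) and Slc9a3 (-7.41). Slc5a8 fell there from 974 and 1028 reads to 3 and 1 reads, so its fitted value is imprecise. The region contrast in Scramble-sgRNA WENR-minus organoids, with 6.08% of all genes called, called 1 of these 10, Slc9a3 (-2.43, adjusted p = 0.0471, lost with the length offset at 0.0673 and without distal replicate 1 or 2 or proximal replicate 2 at 0.0708 to 0.273).

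Likeness of pattern was described by Pearson's r of log2 CPM over the 16 libraries, which share their groups. Atp12a was most like Nxpe4 (0.987), Tgm3 (0.985) and Pla2g12b (0.983). Scnn1a was most like Hs6st1 (0.977), Pla2g12b (0.975) and Brwd3 (0.974), and Scnn1a and Atp12a had 0.97 with each other. Nr3c2 was most like Inpp5j (0.994), Slc35e1 (0.989) and Tesk2 (0.985), and Hsd11b2 most like Xpnpep2 (0.973), Fgl2 (0.972) and Ces1e (0.968). For Sgk1 the nearest were Rab3gap2 (0.938), AA467197 (0.927) and Capn13 (0.923), for Atp1b1 Apc (0.976), Slc38a10 (0.975) and Purb (0.972), and for Usp2 Tnni1 (0.919), Coq10a (0.899) and Dnajc8 (0.898). The lowest value between members was -0.03, for Hsd11b2 and Sgk1.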

How the data were processed

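Stranded total RNA libraries (SMARTer, 16 in 8 groups of 2) were sequenced on a HiSeq instrument. The authors estimated transcripts with Salmon 1.1.0 on GENCODE vM23, and the submitters' processing notes name mm10. The deposited values are expected counts (estimated counts) per transcript and are not scaled between libraries. The deposited TPM were computed by the authors' Salmon run, as were effective lengths. Of 140748 transcripts, 139864 matched GENCODE vM21 (GRCm38) and were summed to 54123 genes and rounded, and 884 were left out, with at most 0.509% of a library. Totals were 12465194 to 18922143 (median 16836530), and mitochondrial ribosomal RNA took 15.4 to 28.0%. Counting intervals and floors (3 reads) cover counting error only.

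Counts were tested in R 4.3.3 with edgeR 4.0.16: filterByExpr (15289 genes), TMM, glmQLFit with 1 coefficient per group over all libraries (8 residual degrees of freedom) and glmQLFTest, Benjamini-Hochberg within each of 17 contrasts. Standard errors were taken from the log2 fold change and its F value, and intervals use 8 degrees of freedom. CPM are TMM-scaled. Motifs were counted in the 250 bases before RefSeq starts (GRCm38.p6). The script was tested on simulated data. Alternatives were RLE size factors, no filter, DESeq2 1.42.0, a replicate block, a transcript length offset, no fold threshold and each library left out in turn.

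The methods state 2 mice, and the replicate number was read as the mouse. Deviations of same-numbered libraries from their group means correlated at -0.06 to 0.59 (median 0.07) over 28 pairs of groups, 9 of them above 0.1. The members and lists were chosen with earlier results of these data known. The rule named the 9 members in every comparison, up to 4 called genes per list and comparison (those with the largest absolute changes, if the higher of the groups reached 5 CPM) and the 3 genes most like each member.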

Additional observations from a re-analysis of the deposited data

Results flagged for a closer look

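Effects that differed between the regions by the test of the difference itself (edgeR, adjusted p under 0.05) were singled out for a closer look. For Cdx2 loss in WENR-minus, the proximal minus the distal log2 effect was -2.46 for Scnn1a, -5.97 for Hsd11b2, -2.89 for Nr3c2, 1.77 for Sgk1, -1.37 for Atp1b1, -2.69 for Atp12a and -2.20 for Usp2. In WENR-plus it was -6.71 for Hsd11b2 and -2.17 for Atp1b1. For withdrawal in Scramble-sgRNA organoids it was -3.74 for Atp12a and -5.15 for Usp2. Those of Hsd11b2 rest on 3 to 5 reads in a group. Groups of 2 libraries are too small for a test of outlying samples.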

How the results depend on the processing

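Each of 105 member values was recomputed under 6 other settings, and 504 times with 1 library left out. Member values of the withdrawal by guide contrasts were not among them, and only their counts were recomputed. Direction and call stayed for 104 with RLE size factors, 93 without the filter on low counts, 96 with DESeq2, 96 with the replicate block, 99 with a transcript length offset and 101 without the fold threshold. Under these 6 settings no member changed direction. Of the 504 values without a library, 426 kept direction and call, 50 lost a call, 13 gained one and 15 turned direction. The cause of these shifts was not tested.

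The count of members called for Cdx2 loss in distal WENR-plus was 1 without the filter, 1 with DESeq2 and 1 with the replicate block. For Cdx2 loss by region in WENR-plus it was 6 without the filter, 5 with DESeq2 and 6 with the replicate block. For withdrawal by region it was 1 with the length offset, and for withdrawal by guide it was 1 without the filter in proximal and 1 in distal organoids. With the replicate block, which reads the number as the mouse, no member's call changed beyond those given beside the results. Without 1 library the count ranged from 1 to 3 for withdrawal in proximal Cdx2-sgRNA, 1 to 2 for region in Scramble-sgRNA WENR-plus, 0 to 2 for Cdx2 loss in distal WENR-minus, 0 to 1 in distal WENR-plus, 2 to 5 by region in WENR-plus and 0 to 2 for withdrawal by region.

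Counts over all genes moved by over 1.5 times in several comparisons. DESeq2 took the count from 267 to 538 for region in Scramble-sgRNA WENR-plus, from 40 to 175 for Cdx2 loss in distal WENR-plus and from 762 to 1234 for Cdx2 loss by region in WENR-plus. It gave 159 for withdrawal by region (from 11) and 1166 for withdrawal by guide in proximal (from 550). The replicate block gave 65 for Cdx2 loss in distal WENR-plus, 20 for withdrawal by region and 829 for withdrawal by guide in proximal. Without the filter the count went from 978 to 1482 for withdrawal in proximal Cdx2-sgRNA, from 929 to 1619 and from 267 to 1039 for region in Scramble-sgRNA WENR-minus and WENR-plus, and from 802 to 1531 and from 40 to 586 for Cdx2 loss in distal WENR-minus and WENR-plus. It went from 762 to 1863 for Cdx2 loss by region in WENR-plus, from 11 to 454 for withdrawal by region, and from 550 to 1596 and from 0 to 354 for withdrawal by guide in proximal and distal. Without 1 library the lowest counts were 313, 342, 80, 131, 14, 360, 0, 46 and 0 for these 9 comparisons, in that order. Leaving out 1 library also took the count from 2595 to 1523 for withdrawal in proximal Scramble-sgRNA, from 2595 to 1586 for region in Cdx2-sgRNA WENR-plus, from 2427 to 1511 for Cdx2 loss in proximal WENR-plus and from 2180 to 1220 for Cdx2 loss by region in WENR-minus, so the shares of all genes called in these 13 comparisons depend on single libraries.

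Values that turned direction without a library were small or rested on few reads. On withdrawal, Atp12a in proximal Scramble-sgRNA ranged from -0.05 to 0.42, Hsd11b2 in proximal Cdx2-sgRNA from -0.56 to 4.47 and Hsd11b2 in distal Cdx2-sgRNA from -0.26 to 1.76. For Cdx2 loss, Scnn1a in proximal WENR-minus ranged from -0.76 to 0.06 and Cdx2 in distal WENR-minus from -0.37 to 0.18. In distal WENR-plus, Hsd11b2 ranged from -1.02 to 1.14, Nr3c2 from -0.21 to 0.51, Sgk1 from -0.25 to 0.83 and Atp1b1 from -0.04 to 0.69. For withdrawal by region, Hsd11b2 ranged from -1.11 to 0.22 and Sgk1 from -1.00 to 0.13.

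The p-values of the main fit measure the spread between the 2 libraries of a group, estimated over all 8 groups and without a term for the mouse. The methods state 2 mice, and the p-values cover no others. A library left alone in its group is assumed to vary like the others. Scnn1b, Scnn1g and proximal Cdx2-sgRNA Hsd11b2 are limited by depth.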
